A study of Mus musculus with 6 samples.

Results

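The genes described here are 38 markers of monocytes and macrophages, read as rows of the deposited expression table. They were chosen by name as a fixed list, with earlier results of these data known. All 38 were among the 35434 genes of that table, and all 38 passed the filter that left 13945 genes for testing. The samples were skin lesions of psoriasis mice into which regulatory T cells (Tregs) had been transferred. In 3 libraries the transferred cells were labelled Lenv-Treg, regulatory T cells exposed to lenvatinib, a kinase inhibitor that blocks, among others, receptors for VEGF and FGF. In the other 3 they were labelled Ctrl-Treg, control regulatory T cells. All 6 libraries thus came from diseased and cell-treated skin, and the labels give no strain, age, way of inducing the disease, dose of cells or time of collection. Whether each sample was a different mouse is not stated either, and p-values therefore refer to the variation among these 6 samples, some of which may be technical.

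Monocytes enter inflamed skin from the blood and can become macrophages there, beside macrophages that already live in the dermis. Macrophages take up dead cells, lipids and microbes through scavenger receptors and digest them in lysosomes. Their gene programmes change with lipid loading, repair and cytokines. Several markers on the list are not private to them: keratinocytes, fibroblasts, endothelial cells, fat cells, melanocytes, neutrophils and platelets use some of the same genes.

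Of the 38 genes, 23 were higher and 4 lower in Lenv-Treg in limma at an adjusted p under 0.05, and 11 did not pass. Over all 13945 tested genes, 11.0% were called higher and 30.8% lower (41.7% in either direction). Because the list was chosen with earlier results of these data known, the contrast with all tested genes is a description. The median difference of the 38 genes was 0.70 on the log2(FPKM + 1) scale, against -0.17 for all tested genes. FPKM counts sequenced fragments relative to gene length and library size. Scaling the libraries to equal medians of ratios moved the median of all tested genes to 0.00 and that of the 38 genes to 0.90, with 25 members higher and 2 lower (all tested genes 17.3% and 17.3%). Rescaling to TPM moved these medians to -0.44 and 0.42, with 19 members higher and 7 lower (6.79% and 57.2%). The 4 lower members were Adgre1, Lyz1, Marco and Fn1, and without Lenv-Treg replicate 2 or without Lenv-Treg replicate 3 only 2 remained called, Lyz1 and Marco. Leaving out Lenv-Treg replicate 1, 2 or 3 gave 23, 19 and 20 members higher (all tested genes 9.93%, 8.26% and 8.86%) and 5, 2 and 2 lower (28.0%, 19.9% and 23.0%). Leaving out Ctrl-Treg replicate 1, 2 or 3 gave 23, 20 and 21 members higher (10.4%, 9.03% and 9.26%) and 3, 4 and 4 lower (27.0%, 22.8% and 24.4%). The groups did not overlap for 25 genes that were higher and 5 that were lower in every Lenv-Treg library (all tested genes 14.4% and 41.0%). In bulk skin, a change in the number of cells of a type and a change in RNA per cell cannot be told apart.

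**Figure D1:**
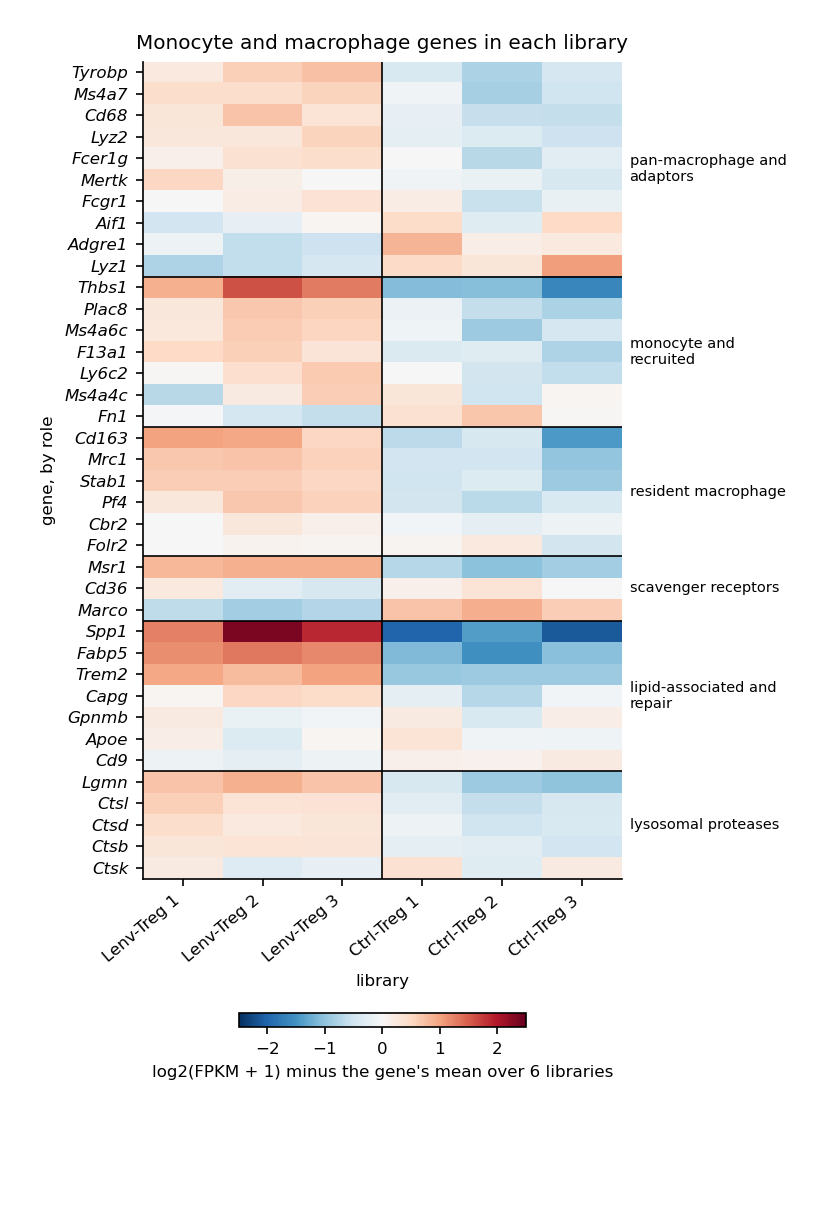
Heat map of the 38 monocyte and macrophage genes (rows, by role) in the 6 libraries (columns, Lenv-Treg left). Colour is log2(FPKM + 1) minus the gene's mean over the 6 libraries. Spp1, Fabp5, Thbs1 and Trem2 are high in all 3 Lenv-Treg libraries, while Lyz1, Adgre1 and Marco are high in the Ctrl-Treg libraries.

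Depth was alike in all libraries, with totals of 38704536 to 40248462 reads recovered from the steps of the FPKM values, and the member with the fewest reads in a library had 60 (Trem2 in a Ctrl-Treg library). Over tested genes, 84.6% of the variance lay along a single component that separated the groups. The transferred cells carry no marker transcript named in the labels, so group labels could not be checked against a gene. The macrophage markers C1qa, C1qb, C1qc, Csf1r and Mpeg1, which are not on the list of 38, were present in every library, the lowest being Mpeg1 at 29.8 FPKM in Ctrl-Treg replicate 3.

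The upstream sequences of 5 members are shown, chosen after their values were seen. Each was taken at a start that holds a match to a pattern given below, so a match in every sequence is not a result. The lysozyme genes Lyz2 and Lyz1 moved in opposite directions although they are close copies, Spp1 had the largest difference of the list, and Ctsd and Lgmn were among the lysosomal proteases that were higher. Spp1 and Lgmn have 2 starts in the table, and the first that holds a match is shown. Each sequence is the 250 bases before the transcription start, from RefSeq on GRCm38.p6, a build other than the GRCm39 of the expression table. RefSeq promoters were at hand for 31 of the 38 members, at 40 starts. Capitals mark AGGAAGT, a form of the site bound by PU.1, the ETS factor of the myeloid lineage, or CACGTG, the E-box bound by the lysosomal regulators TFEB and MITF. Both were searched on both strands (CACGTG reads the same on each), and no matches overlapped in the sequences shown. Lyz2 is at chr10:117282273-117282522, minus strand and Lyz1 at chr10:117292869-117293118, minus strand. Spp1 is at chr5:104434861-104435110, plus strand, Ctsd at chr7:142387828-142388077, minus strand and Lgmn at chr12:102439093-102439342, minus strand.

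Lyz2: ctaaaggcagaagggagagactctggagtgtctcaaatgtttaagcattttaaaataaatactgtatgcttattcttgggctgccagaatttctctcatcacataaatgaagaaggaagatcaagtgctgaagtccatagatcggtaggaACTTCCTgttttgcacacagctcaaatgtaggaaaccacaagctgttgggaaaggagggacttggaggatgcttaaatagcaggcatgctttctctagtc
Lyz1: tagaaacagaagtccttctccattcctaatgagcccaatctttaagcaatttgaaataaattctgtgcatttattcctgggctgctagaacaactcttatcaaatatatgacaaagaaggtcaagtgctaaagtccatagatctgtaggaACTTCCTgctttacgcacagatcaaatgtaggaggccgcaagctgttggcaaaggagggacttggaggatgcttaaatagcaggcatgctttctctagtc
Spp1: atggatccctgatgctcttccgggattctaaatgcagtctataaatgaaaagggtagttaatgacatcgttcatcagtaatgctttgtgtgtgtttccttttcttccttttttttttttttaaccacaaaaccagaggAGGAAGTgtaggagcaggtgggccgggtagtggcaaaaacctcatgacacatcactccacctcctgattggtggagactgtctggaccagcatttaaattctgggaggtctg
Ctsd: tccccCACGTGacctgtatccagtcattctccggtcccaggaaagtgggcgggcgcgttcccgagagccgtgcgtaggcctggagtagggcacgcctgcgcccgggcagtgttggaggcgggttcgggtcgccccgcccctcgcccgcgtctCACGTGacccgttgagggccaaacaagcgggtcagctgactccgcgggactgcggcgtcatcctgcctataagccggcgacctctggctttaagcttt
Lgmn: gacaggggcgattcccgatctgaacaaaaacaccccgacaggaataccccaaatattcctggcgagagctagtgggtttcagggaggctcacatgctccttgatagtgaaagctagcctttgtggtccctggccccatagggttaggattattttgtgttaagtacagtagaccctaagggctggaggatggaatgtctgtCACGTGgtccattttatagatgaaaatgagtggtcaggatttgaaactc

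AGGAAGT lay in the 250 bases before 11 of the 40 member starts, which belong to 10 genes, and in 7.69% of all 32851 promoters in the table. Of these 10 genes, 7 were higher in Lenv-Treg, Lyz1 was lower, and Fcgr1 and Folr2 did not pass. Of all 38 members, 23 were higher. CACGTG lay before 3 of the 40 starts, those of Ctsd and Ctsl and 1 of the 2 Lgmn starts. It lay in 6.02% of all promoters, a share near that of the member starts. All 3 genes are lysosomal proteases that were higher in Lenv-Treg, and no result about CACGTG is drawn from so few starts. In the Lyz2 and Lyz1 sequences AGGAAGT sits at the same place, on the other strand, with its first letter as printed (ACTTCCT) 100 bases before the start. The 250-base sequences of the pair were 79.4% identical, with a shared run of 50 bases. A match of letters is a description and not evidence of binding.

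Genes that mark most macrophages did not move as one. Of 10 such members, 5 were higher (Tyrobp, Ms4a7, Cd68, Lyz2 and Fcer1g), 2 were lower (Lyz1 and Adgre1), and Mertk, Fcgr1 and Aif1 did not pass. Lyz2, the lysozyme of myeloid cells and the most abundant of the 10, had 1851, 1851 and 2220.1 FPKM in the Lenv-Treg libraries, against 1274, 1192 and 1059.7 FPKM in the Ctrl-Treg libraries. Every Lenv-Treg library lay above every Ctrl-Treg library (1.68-fold by means, log2 difference 0.75, SE 0.18, limma adjusted p = 0.015). The call ended without Lenv-Treg replicate 2 or without Lenv-Treg replicate 3, at limma adjusted p = 0.0526 and 0.058, and without a filter on low values (limma adjusted p = 0.0758). Lyz1, the lysozyme copy best known from Paneth cells of the gut, had 17.5, 19.8 and 22.6 FPKM in the Lenv-Treg libraries, against 43.0, 37.9 and 64.9 FPKM in the Ctrl-Treg libraries. It thus went the other way without overlap (log2 difference -1.21, SE 0.20, limma adjusted p = 0.00289). The ratio of Lyz1 to Lyz2 FPKM within a library was 0.00943 to 0.0107 in the Lenv-Treg libraries, against 0.0318 to 0.0612 in the Ctrl-Treg libraries. Their transcripts were 95.8% identical over 1264 aligned positions in GENCODE M21, with a longest shared run of 118 bases, and how reads that match both copies were counted is not given in the sources used here, so the values of both, taken gene by gene, are uncertain.

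Adgre1 and Cd68, common markers of mouse macrophages, also parted; they were singled out after their values were seen. Cd68, a glycoprotein of lysosomes and endosomes, had 131, 176 and 134 FPKM in Lenv-Treg, against 92.4, 71.1 and 70.1 FPKM in Ctrl-Treg (log2 difference 0.91, SE 0.16, limma adjusted p = 0.00416). Adgre1, an adhesion receptor long used to stain mouse macrophages, had 74.2, 53.1 and 56.5 FPKM in Lenv-Treg, against 147, 91.8 and 97.2 FPKM in Ctrl-Treg (log2 difference -0.84, SE 0.21, limma adjusted p = 0.0154). Neither gene overlapped between the groups, and the ratio of Adgre1 to Cd68 FPKM was 0.302 to 0.565 in the Lenv-Treg libraries, against 1.29 to 1.59 in the Ctrl-Treg libraries. The call on Adgre1 ended under median-of-ratios scaling (difference -0.63, limma adjusted p = 0.0557) and without Lenv-Treg replicate 2 or without Lenv-Treg replicate 3 (limma adjusted p = 0.0596 and 0.0536), while its sign held. The part of other cell types in the Adgre1 and Cd68 values was not tested.

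Tyrobp and Fcer1g encode the signalling adaptors that carry activating motifs for TREM2, Fc receptors and related receptors. Tyrobp (DAP12) had 360.1, 457 and 500.3 FPKM in Lenv-Treg, against 233, 174 and 227 FPKM in Ctrl-Treg. All 3 Lenv-Treg libraries were above all 3 Ctrl-Treg libraries (2.08-fold, log2 difference 1.05, SE 0.18, limma adjusted p = 0.00337). Fcer1g, the common Fc receptor gamma chain, had 377, 454 and 469 FPKM in Lenv-Treg, against 348, 216 and 291 FPKM in Ctrl-Treg. The nearest libraries of the groups lay close together without overlap (log2 difference 0.63, SE 0.20, limma adjusted p = 0.0381), but the call ended without any 1 of 4 libraries: without Lenv-Treg replicate 2, Lenv-Treg replicate 3, Ctrl-Treg replicate 2 or Ctrl-Treg replicate 3 the limma adjusted p was 0.116, 0.11, 0.0898 or 0.0665. It also ended after rescaling to TPM and after quantile normalization (limma adjusted p = 0.123 and 0.171). Neutrophils, natural killer cells and mast cells express both adaptors. All 6 neutrophil markers examined rose, with a summed level of 277 to 539 FPKM in Lenv-Treg and 8.41 to 15.3 FPKM in Ctrl-Treg. Of 6 mast cell markers 1 rose and 1 fell (summed level 252 to 395 FPKM in Lenv-Treg and 197 to 279 FPKM in Ctrl-Treg), and 0 of 6 in either list was at 0 in any library. The part of these cells in the adaptor values was not tested.

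The other members of this group spread around the threshold. Ms4a7, a four-transmembrane protein of mature macrophages, averaged 55.7 ± 2.71 FPKM in Lenv-Treg and 29.0 ± 7.88 FPKM in Ctrl-Treg (SD, n = 3 each, log2 difference 0.95, SE 0.18, limma adjusted p = 0.00551). Mertk, a receptor for apoptotic cells, averaged 5.17 ± 1.19 FPKM in Lenv-Treg and 3.51 ± 0.506 FPKM in Ctrl-Treg without overlap and did not pass (limma adjusted p = 0.0566). Mertk passed under 6 of the 17 alternatives. Among them were median-of-ratios scaling, quantile normalization, voom on recovered reads and leaving out Lenv-Treg replicate 3 (limma adjusted p = 0.0189, 0.0114, 0.0445 and 0.0401). Fcgr1, the high-affinity IgG receptor, averaged 17.8 ± 2.19 FPKM in Lenv-Treg and 13.8 ± 3.77 FPKM in Ctrl-Treg (limma adjusted p = 0.152, and 0.0333 without Ctrl-Treg replicate 1). Aif1, the calcium-binding protein IBA1, averaged 57.0 ± 10.3 FPKM in Lenv-Treg and 78.5 ± 22.2 FPKM in Ctrl-Treg (limma adjusted p = 0.177, and 0.0205, lower in Lenv-Treg, without Ctrl-Treg replicate 2). After rescaling to TPM Aif1 was called lower as well (limma adjusted p = 0.0171).

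**Figure D2:**
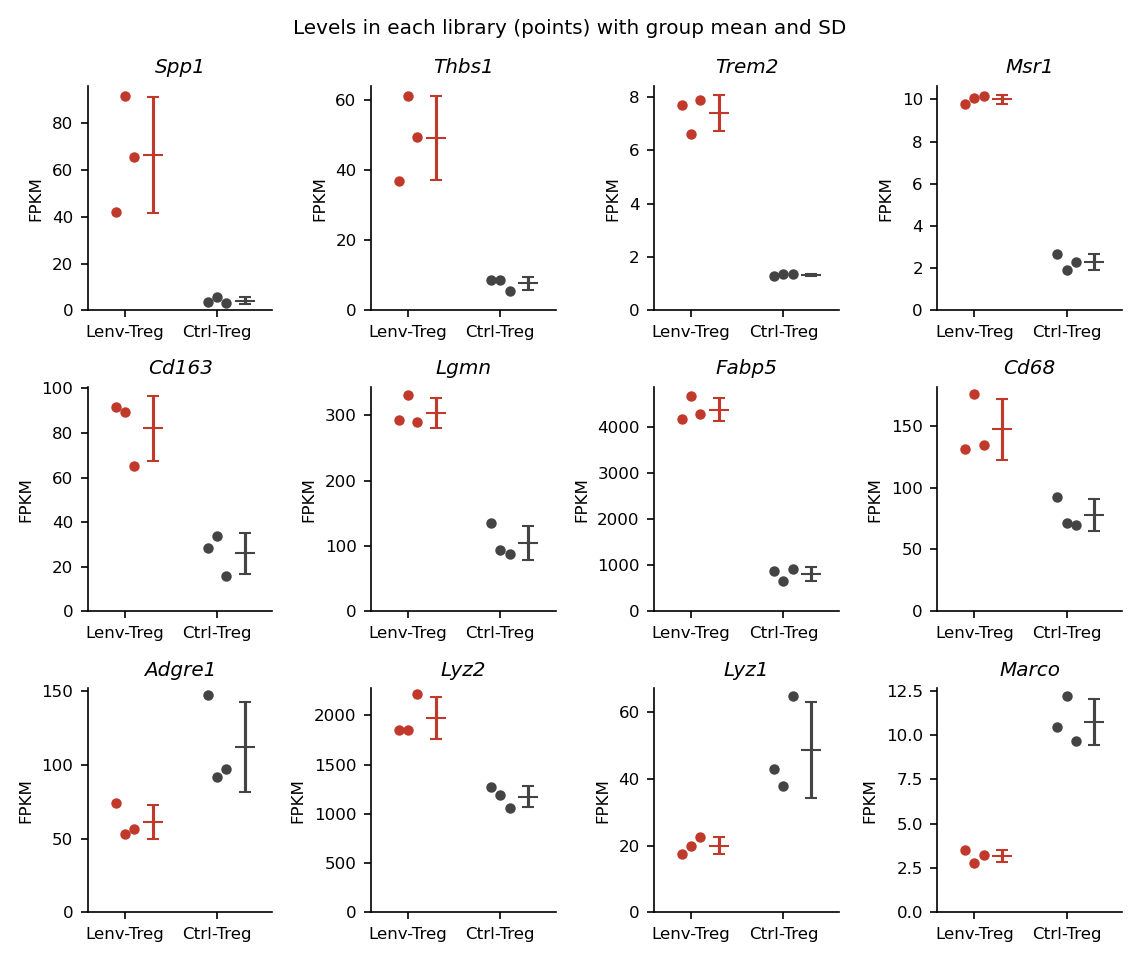
FPKM of 12 members in each library (points, Lenv-Treg left) with the group mean and SD beside them; each axis starts at 0. No group pair shown overlaps: Adgre1, Lyz1 and Marco are lower and the other 9 genes higher in Lenv-Treg.

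Genes of blood monocytes and of recently arrived cells were mostly higher. Of 7 members, 5 were higher (Thbs1, Plac8, Ms4a6c, F13a1 and Ly6c2), Fn1 was lower and Ms4a4c did not pass. Thbs1, which encodes the matrix protein thrombospondin, had 36.9, 61.0 and 49.6 FPKM in the Lenv-Treg libraries, against 8.66, 8.81 and 5.67 FPKM in the Ctrl-Treg libraries. The lowest Lenv-Treg library was above the highest Ctrl-Treg library by a wide margin (6.38-fold, log2 difference 2.52, SE 0.22, limma adjusted p = 0.000194). Activated platelets, fibroblasts and keratinocytes also make thrombospondin. F13a1, the A chain of coagulation factor XIII in monocytes and dermal macrophages, had 166, 178 and 146 FPKM in Lenv-Treg, against 90.8, 94.8 and 68.4 FPKM in Ctrl-Treg, again without overlap (log2 difference 0.95, SE 0.15, limma adjusted p = 0.00257).

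Plac8, a small cysteine-rich protein of inflammatory monocytes, had 18.6, 24.6 and 23.3 FPKM in Lenv-Treg, against 13.6, 9.66 and 8.33 FPKM in Ctrl-Treg. It did not overlap between the groups (2.10-fold, log2 difference 1.02, SE 0.18, limma adjusted p = 0.0041). Ms4a6c, a membrane protein of monocytes, had 72.1, 94.2 and 88.1 FPKM in Lenv-Treg, against 55.4, 31.5 and 44.5 FPKM in Ctrl-Treg, also without overlap (log2 difference 0.97, SE 0.21, limma adjusted p = 0.009). Its family member Ms4a4c, which is interferon-inducible, averaged 5.84 ± 2.84 FPKM in Lenv-Treg and 5.12 ± 1.63 FPKM in Ctrl-Treg (SD, n = 3 each) and overlapped (limma adjusted p = 0.834), with a sign that was negative after rescaling to TPM (-0.16).

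Ly6c2, the surface antigen by which inflammatory mouse monocytes are sorted, averaged 9.75 ± 2.27 FPKM in Lenv-Treg and 5.54 ± 1.51 FPKM in Ctrl-Treg (SD, n = 3 each, log2 difference 0.72, SE 0.21, limma adjusted p = 0.0269). The nearest libraries, at 7.38 FPKM in Lenv-Treg replicate 1 and 7.25 FPKM in Ctrl-Treg replicate 1, were close. The call ended without Lenv-Treg replicate 2, Lenv-Treg replicate 3, Ctrl-Treg replicate 2 or Ctrl-Treg replicate 3 (limma adjusted p = 0.0807, 0.0848, 0.0735 and 0.0758), after rescaling to TPM (limma adjusted p = 0.0743) and with the title's number as a replicate block (limma adjusted p = 0.0572; 23 members higher and 5 lower, all tested genes 11.7% and 30.6%). Its neighbour and close copy Ly6c1, an antigen of endothelial cells among others, averaged 104 ± 9.59 FPKM in Lenv-Treg and 157 ± 25.1 FPKM in Ctrl-Treg and was lower (log2 difference -0.58, SE 0.14, limma adjusted p = 0.0146; limma adjusted p = 0.0911 under median-of-ratios scaling, and 0.0596 and 0.0503 without Lenv-Treg replicate 2 or Lenv-Treg replicate 3). Transcripts of the pair were 97.9% identical over 339 aligned positions, so the values of both are uncertain.

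Fn1, fibronectin, averaged 26.4 ± 5.49 FPKM in Lenv-Treg and 44.4 ± 10.4 FPKM in Ctrl-Treg (SD, n = 3 each, log2 difference -0.72, SE 0.20, limma adjusted p = 0.0243). Its call ended under median-of-ratios scaling (difference -0.52, limma adjusted p = 0.0765) and without Lenv-Treg replicate 2, Lenv-Treg replicate 3, Ctrl-Treg replicate 1 or Ctrl-Treg replicate 2 (limma adjusted p = 0.0777, 0.0798, 0.0582 and 0.064). Fibroblasts are a major source of fibronectin in skin. Of 6 fibroblast markers 0 rose and 3 fell, the collagen genes Col1a1, Col1a2 and Col3a1, with a summed level over the 6 of 2376 to 3406 FPKM in Lenv-Treg and 4395 to 5581 FPKM in Ctrl-Treg. Dcn, the most abundant of the 6, Lum and Pdgfra did not pass (limma adjusted p = 0.449, 0.376 and 0.579). Lum was called lower after rescaling to TPM and after quantile normalization (limma adjusted p = 0.0171 and 0.0359). The call on Col3a1 (limma adjusted p = 0.0465) ended under median-of-ratios scaling (0.158), after quantile normalization (0.0585) and without Lenv-Treg replicate 2, Lenv-Treg replicate 3, Ctrl-Treg replicate 1 or Ctrl-Treg replicate 2 (limma adjusted p = 0.141, 0.149, 0.124 and 0.11). The part of fibroblasts in the Fn1 values was not tested.

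Markers of resident dermal macrophages rose where they passed. Of 6 members, 4 were higher (Cd163, Mrc1, Stab1 and Pf4), 0 were lower, and Cbr2 and Folr2 did not pass. Cd163, the receptor that clears haemoglobin and haptoglobin, had 91.5, 89.2 and 65.2 FPKM in the Lenv-Treg libraries, against 28.4, 33.8 and 15.9 FPKM in the Ctrl-Treg libraries. The lowest of the 3 Lenv-Treg libraries was still above the highest Ctrl-Treg library (3.15-fold, log2 difference 1.67, SE 0.27, limma adjusted p = 0.00266). Mrc1, the mannose receptor CD206, had 130.1, 135 and 121 FPKM in Lenv-Treg, against 57.9, 57.9 and 40.5 FPKM in Ctrl-Treg, with little spread within Lenv-Treg (log2 difference 1.31, SE 0.15, limma adjusted p = 0.000704). Stab1, a scavenger receptor of macrophages and lymphatic endothelium, averaged 23.7 ± 0.878 FPKM in Lenv-Treg and 10.1 ± 2.20 FPKM in Ctrl-Treg (SD, n = 3 each, log2 difference 1.17, SE 0.15, limma adjusted p = 0.001). Of 6 endothelial markers 2 rose, Tie1 and Emcn, and 0 fell (summed level 158 to 190.4 FPKM in Lenv-Treg and 92.1 to 146 FPKM in Ctrl-Treg). Plvap and Pecam1, the most abundant of the 6, did not pass (limma adjusted p = 0.0732 and 0.0756). The 6 markers hold no gene particular to lymphatic vessels, and the part of endothelium in the Stab1 values was not tested. The calls on Tie1 and Emcn ended after rescaling to TPM (limma adjusted p = 0.212 and 0.171). That on Tie1 also ended without any 1 library other than Ctrl-Treg replicate 1 (limma adjusted p up to 0.115, without Lenv-Treg replicate 1), and that on Emcn without Lenv-Treg replicate 1 or Lenv-Treg replicate 3 (limma adjusted p = 0.0589 and 0.0624).

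Pf4, platelet factor 4, which tissue macrophages also transcribe, had 241, 318 and 294 FPKM in Lenv-Treg, against 143, 123 and 151 FPKM in Ctrl-Treg. The groups did not overlap (2.05-fold, log2 difference 1.02, SE 0.15, limma adjusted p = 0.00157). Of 5 platelet markers, Itga2b was the most abundant, at 1.43 to 2.21 FPKM over all libraries, and did not pass (limma adjusted p = 0.537). Gp9, Gp1ba and Gp6 were at most 0.256 FPKM in any library and were outside the filter. Gp6 was at 0 in Lenv-Treg replicate 1 and in all 3 Ctrl-Treg libraries. Of the 5 platelet genes 2 could be tested, of which Ppbp rose (limma adjusted p = 0.0211, and 0.0519 and 0.0589 without Lenv-Treg replicate 3 or Ctrl-Treg replicate 3), and the summed level of all 5 was 2.64 to 6.16 FPKM in Lenv-Treg and 2.22 to 2.46 FPKM in Ctrl-Treg. The part of platelets in the Pf4 and Thbs1 values was not tested.

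The resident markers that did not pass were abundant. Cbr2, a carbonyl reductase used as a marker of dermal macrophages, had 199.7, 244 and 218 FPKM in Lenv-Treg, against 190.1, 169 and 182 FPKM in Ctrl-Treg. The groups did not overlap but the difference did not pass (log2 difference 0.28, SE 0.12, limma adjusted p = 0.0981); it passed under median-of-ratios scaling (limma adjusted p = 0.0265) and was -0.0041 after rescaling to TPM. Folr2, folate receptor beta, averaged 88.2 ± 3.10 FPKM in Lenv-Treg and 83.5 ± 20.0 FPKM in Ctrl-Treg (SD, n = 3 each, limma adjusted p = 0.653), with a sign that was negative after rescaling to TPM (-0.18) and without Ctrl-Treg replicate 3 (-0.10). The ratio of Mrc1 to Folr2 FPKM, a pair chosen after the values were seen, was 1.35 to 1.54 in the Lenv-Treg libraries, against 0.578 to 0.660 in the Ctrl-Treg libraries.

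Of the 3 scavenger receptors, Msr1 was higher, Marco was lower and Cd36 did not pass. Msr1, the class A receptor that binds modified lipoproteins, had 9.77, 10.1 and 10.2 FPKM in the Lenv-Treg libraries, against 2.68, 1.94 and 2.30 FPKM in the Ctrl-Treg libraries. The spread within each group was small beside the 4.34-fold difference (log2 difference 1.74, SE 0.11, limma adjusted p = 6.01e-05). Marco, a related class A receptor of marginal zone and other resident macrophages that binds bacteria, had 3.52, 2.81 and 3.21 FPKM in the Lenv-Treg libraries, against 10.4, 12.2 and 9.65 FPKM in the Ctrl-Treg libraries. It was the lowest in Lenv-Treg of all 38 members (log2 difference -1.49, SE 0.12, limma adjusted p = 0.00014), and the ratio of Marco to Msr1 FPKM was 0.279 to 0.361 in the Lenv-Treg libraries, against 3.89 to 6.29 in the Ctrl-Treg libraries. Both calls held under all 17 alternatives. Cd36, a fatty acid transporter, had 136, 95.2 and 87.2 FPKM in Lenv-Treg, against 126, 146 and 115 FPKM in Ctrl-Treg, with overlapping groups (log2 difference -0.30, SE 0.18, limma adjusted p = 0.227). It was called lower without Lenv-Treg replicate 1 (limma adjusted p = 0.0358) and after rescaling to TPM (limma adjusted p = 0.0448). Fat cells and capillary endothelium also express Cd36. Of 5 fat cell markers 0 rose and 4 fell, with a summed level of 219 to 255 FPKM in Lenv-Treg and 421 to 533 FPKM in Ctrl-Treg, and their part in the Cd36 values was not tested. Of these 4 calls, that on Lipe ended under median-of-ratios scaling (limma adjusted p = 0.0916).

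Among genes of lipid-handling and repair macrophages, 4 of 7 members were higher (Spp1, Fabp5, Trem2 and Capg), 0 were lower and 3 did not pass (Apoe, Gpnmb and Cd9). Spp1, which encodes the secreted matrix protein osteopontin, had 41.9, 91.3 and 65.3 FPKM in the Lenv-Treg libraries, against 3.54, 5.81 and 3.23 FPKM in the Ctrl-Treg libraries. This 15.8-fold difference was the largest of the 38 members (log2 difference 3.66, SE 0.29, limma adjusted p = 0.000152), rank 55 of the 13945 tested genes by size of increase. The values in Lenv-Treg differed among themselves by more than 2-fold and yet stayed far above Ctrl-Treg. Trem2, a lipid-sensing receptor that signals through the Tyrobp adaptor, had 7.68, 6.61 and 7.87 FPKM in the Lenv-Treg libraries, against 1.30, 1.36 and 1.35 FPKM in the Ctrl-Treg libraries. Its libraries were close together within each group (5.52-fold, log2 difference 1.84, SE 0.10, limma adjusted p = 3.3e-05), and the smallest adjusted p of the list was that of Trem2. The ratio of Trem2 to Tyrobp FPKM was 0.0145 to 0.0213 in the Lenv-Treg libraries, against 0.00557 to 0.00780 in the Ctrl-Treg libraries.

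Fabp5, an epidermal fatty acid binding protein that macrophages also use, had the highest mean over the 6 libraries, and in each Ctrl-Treg library Lyz2 was higher. Fabp5 had 4175, 4662 and 4285 FPKM in the Lenv-Treg libraries, against 871, 649 and 913 FPKM in the Ctrl-Treg libraries. No library of 1 group came near the other (5.39-fold, log2 difference 2.44, SE 0.21, limma adjusted p = 0.000191). Basal keratinocytes express Fabp5. Of 6 keratinocyte markers 2 rose, the basal keratins Krt5 and Krt14, and Krt10 fell, with a summed level over the 6 of 7302 to 9063 FPKM in Lenv-Treg and 2731 to 4394 FPKM in Ctrl-Treg. Krt1, Trp63 and Dsp did not pass (limma adjusted p = 0.99, 0.38 and 0.0586). Trp63 was called lower after rescaling to TPM (limma adjusted p = 0.011). Dsp was called higher under median-of-ratios scaling (limma adjusted p = 0.017). Krt10 overlapped between the groups (limma adjusted p = 0.0419), and its call ended under median-of-ratios scaling (limma adjusted p = 0.0849) and without Lenv-Treg replicate 2, Lenv-Treg replicate 3, Ctrl-Treg replicate 1 or Ctrl-Treg replicate 3 (limma adjusted p = 0.134, 0.129, 0.111 and 0.0929). The part of keratinocytes in the Fabp5 values was not tested.

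Apoe, apolipoprotein E, had 742, 522 and 683 FPKM in Lenv-Treg, against 843, 621 and 618 FPKM in Ctrl-Treg, with overlapping groups (limma adjusted p = 0.727). Its difference of -0.10 changed sign under median-of-ratios scaling (0.12). Gpnmb, a lysosomal glycoprotein of lipid-loaded macrophages, averaged 46.4 ± 6.93 FPKM in Lenv-Treg and 47.0 ± 10.2 FPKM in Ctrl-Treg (SD, n = 3 each, limma adjusted p = 0.982), with a sign that was positive under median-of-ratios scaling (0.20). Melanocytes express Gpnmb as well, and all 5 melanocyte markers fell, with a summed level of 7.84 to 10.9 FPKM in Lenv-Treg and 112 to 180.5 FPKM in Ctrl-Treg. Cd9, a tetraspanin that keratinocytes and platelets share, averaged 234 ± 8.79 FPKM in Lenv-Treg and 291 ± 12.2 FPKM in Ctrl-Treg without overlap and did not pass (limma adjusted p = 0.0552). Its difference of -0.31 was -0.10 under median-of-ratios scaling (limma adjusted p = 0.522). Cd9 was called lower under 5 of the 17 alternatives. Among them were voom on recovered reads, rescaling to TPM and quantile normalization (limma adjusted p = 0.038, 0.00236 and 0.00381). Capg, an actin-capping protein of macrophages and other cells, averaged 135 ± 22.9 FPKM in Lenv-Treg and 84.7 ± 18.8 FPKM in Ctrl-Treg (SD, n = 3 each, log2 difference 0.68, SE 0.20, limma adjusted p = 0.0305). The Capg call ended without Lenv-Treg replicate 2, Lenv-Treg replicate 3, Ctrl-Treg replicate 1 or Ctrl-Treg replicate 2 (limma adjusted p = 0.103, 0.0916, 0.0509 and 0.0712) and after rescaling to TPM (limma adjusted p = 0.0736).

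Lysosomal proteases were higher in Lenv-Treg for 4 of 5 members, Lgmn, Ctsl, Ctsd and Ctsb, and Ctsk did not pass. The part of keratinocytes and other skin cells in the values of these proteases was not tested. Lgmn, legumain, an asparaginyl endopeptidase that processes antigens and other proteases, had 292, 331 and 289 FPKM in the Lenv-Treg libraries, against 135, 93.4 and 87.5 FPKM in the Ctrl-Treg libraries. The lowest Lenv-Treg library was more than 2-fold above the highest Ctrl-Treg library (2.89-fold by means, log2 difference 1.55, SE 0.18, limma adjusted p = 0.00063). Ctsl, a cysteine protease, had 305, 254 and 259 FPKM in Lenv-Treg, against 165, 132 and 151 FPKM in Ctrl-Treg and did not overlap (log2 difference 0.86, SE 0.13, limma adjusted p = 0.00232). Ctsd, an aspartic protease and the most abundant of the 5, had 945, 824 and 853 FPKM in Lenv-Treg, against 637, 492 and 531 FPKM in Ctrl-Treg. Its groups did not overlap (log2 difference 0.66, SE 0.16, limma adjusted p = 0.0141), and the call ended after rescaling to TPM and after quantile normalization (limma adjusted p = 0.0695 and 0.0524). Ctsb, another cysteine protease, averaged 475 ± 5.26 FPKM in Lenv-Treg and 303 ± 27.1 FPKM in Ctrl-Treg (SD, n = 3 each, log2 difference 0.65, SE 0.13, limma adjusted p = 0.00612), and that call ended after quantile normalization (limma adjusted p = 0.0544). Ctsk, a collagen-degrading protease that fibroblasts express too, had 559, 383 and 412 FPKM in Lenv-Treg, against 623, 385 and 554 FPKM in Ctrl-Treg, with overlapping groups (limma adjusted p = 0.515) and a difference of 0.02 under median-of-ratios scaling. The CACGTG matches shown above belong to Ctsd and Lgmn, and Ctsl held 1 too, at a share of member starts near that of all promoters.

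**Figure D3:**
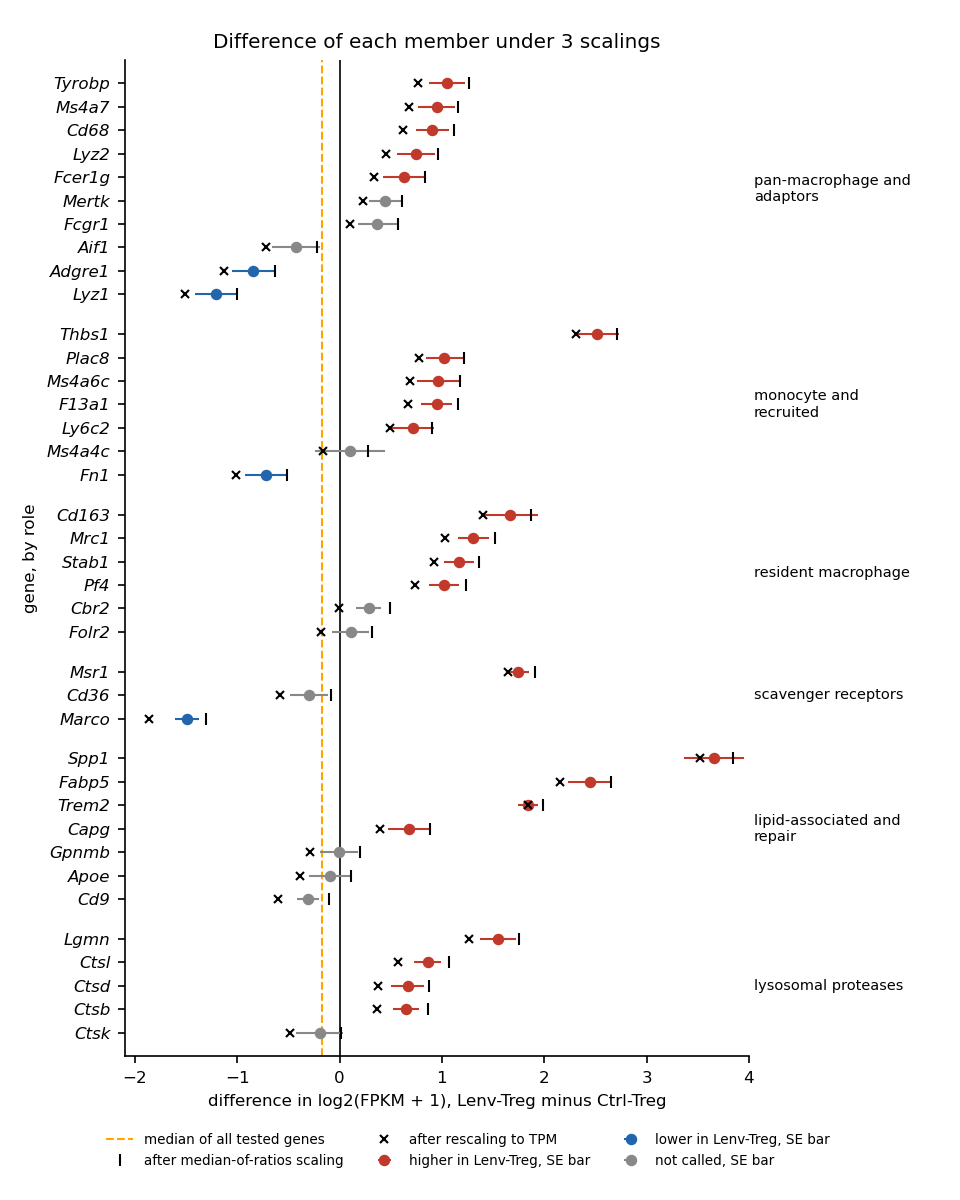
Difference of each member in log2(FPKM + 1), Lenv-Treg minus Ctrl-Treg (points, with SE), by role, coloured by call at an adjusted p under 0.05, with the value after median-of-ratios scaling (bar) and after rescaling to TPM (cross). The dashed line is the median of all tested genes, -0.17. Median-of-ratios scaling shifts all 38 members up and TPM shifts 37 down, all but Trem2, and Apoe, Gpnmb, Ctsk, Ms4a4c, Folr2 and Cbr2 cross 0.

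Other macrophage genes, a list of 32 that holds no member, were set beside the 38. Of these, 13 were higher and 4 lower in Lenv-Treg and 15 did not pass, with a median difference of 0.48 (0.69 under median-of-ratios scaling, 0.19 after rescaling to TPM). Of the 13, the call on Itgam ended without Lenv-Treg replicate 2 (limma adjusted p = 0.0566), that on Sirpa without any 1 library other than Ctrl-Treg replicate 1 (limma adjusted p = 0.0679 to 0.105), and that on Nos2 without Lenv-Treg replicate 3 or Ctrl-Treg replicate 3 (limma adjusted p = 0.0525 and 0.0517). The 4 most abundant did not pass. Lgals3, galectin-3, averaged 612 ± 30.7 FPKM in Lenv-Treg and 452 ± 109 FPKM in Ctrl-Treg (limma adjusted p = 0.101). The complement C1q genes, products of tissue macrophages, had differences of 0.26 for C1qa, 0.30 for C1qb and 0.34 for C1qc (limma adjusted p = 0.261, 0.147 and 0.124). Under median-of-ratios scaling Lgals3, C1qb and C1qc passed (limma adjusted p = 0.0452, 0.0446 and 0.0421).

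The other 4 named genes of that list were named because they had the smallest p among the rest. Their larger differences, and groups without overlap, follow from that choice and are no separate result. Chil3, a chitinase-like protein of alternatively activated macrophages that neutrophils also make, had 87.4, 137 and 140.1 FPKM in Lenv-Treg, against 1.76, 1.71 and 0.633 FPKM in Ctrl-Treg (log2 difference 5.70, SE 0.25, limma adjusted p = 2.39e-05). Cd14, the co-receptor for lipopolysaccharide, had 100.2, 161 and 159 FPKM in Lenv-Treg, against 19.4, 16.0 and 12.3 FPKM in Ctrl-Treg (log2 difference 3.05, SE 0.22, limma adjusted p = 0.000117). Lyve1, a hyaluronan receptor of resident macrophages and lymphatic vessels, had 57.0, 64.8 and 51.2 FPKM in Lenv-Treg, against 14.0, 12.3 and 11.1 FPKM in Ctrl-Treg (log2 difference 2.12, SE 0.12, limma adjusted p = 4.91e-05). Mgl2, the lectin CD301b of dermal dendritic cells and macrophages, had 4.53, 5.47 and 4.99 FPKM in Lenv-Treg, against 22.7, 19.0 and 24.8 FPKM in Ctrl-Treg, and so was lower (log2 difference -1.95, SE 0.12, limma adjusted p = 6.37e-05). In all 4 the groups did not overlap.

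**Figure D4:**
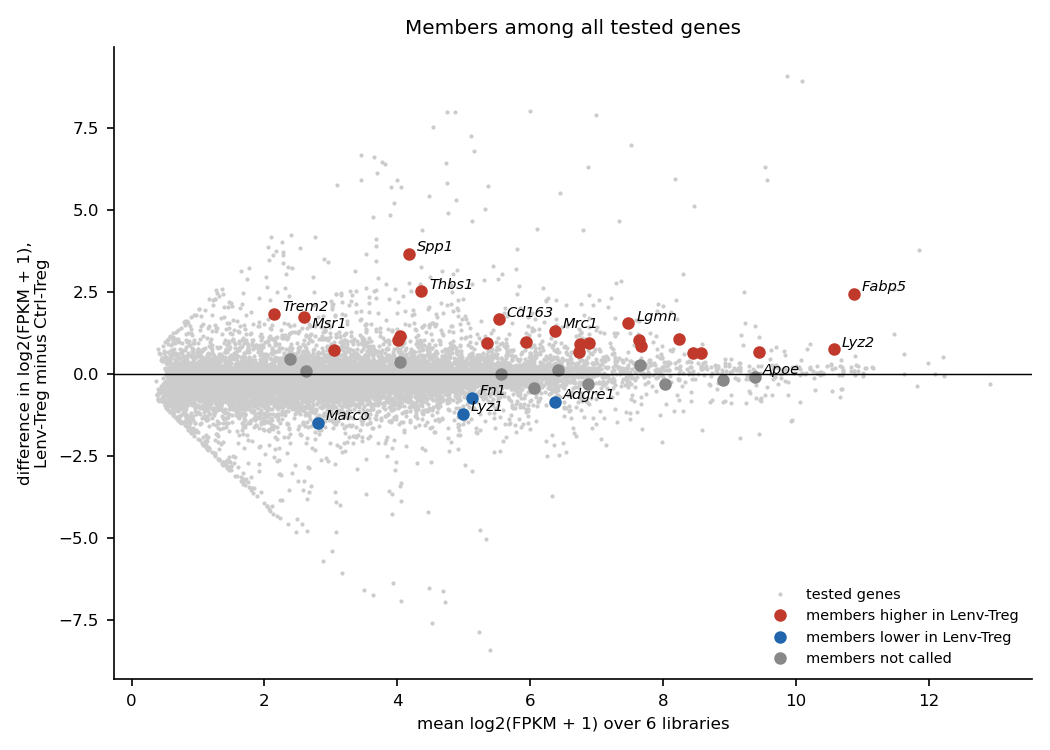
Difference in log2(FPKM + 1), Lenv-Treg minus Ctrl-Treg, against the mean log2(FPKM + 1) over the 6 libraries, for the 13945 tested genes (grey) and the 38 members (coloured by call; grey members did not pass). Spp1 at 3.66 is the highest member and Marco at -1.49 the lowest, and other tested genes lie well beyond both.

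Summed over all 38 members, the level was 12131 to 12571 FPKM in Lenv-Treg and 5812 to 7203 FPKM in Ctrl-Treg. The largest part of this sum was Fabp5 in each Lenv-Treg library and Lyz2 in each Ctrl-Treg library. Without the lipid-handling and repair group, each other group's sum was also higher in Lenv-Treg libraries except that of the scavenger receptors, which was 101 to 149.7 FPKM in Lenv-Treg and 127 to 160.1 FPKM in Ctrl-Treg. Of 7 dendritic and Langerhans cell markers 6 were tested, with 0 higher and 2 lower (summed level 20.3 to 26.0 FPKM in Lenv-Treg and 17.1 to 28.7 FPKM in Ctrl-Treg). Of 7 T and NK cell markers 6 were in the table and 5 tested, with 0 higher and 1 lower (summed level 9.07 to 15.0 FPKM in Lenv-Treg and 16.2 to 22.0 FPKM in Ctrl-Treg). Among these, the call on Cd207 ended under median-of-ratios scaling and without any 1 library other than Ctrl-Treg replicate 2 (limma adjusted p = 0.0651, and up to 0.0789 without Lenv-Treg replicate 2). That on Nkg7 ended without Lenv-Treg replicate 2 (limma adjusted p = 0.0559). Both calls also ended after quantile normalization (limma adjusted p = 0.0876 for Cd207 and 0.074 for Nkg7). The part of any other cell type in the members' values was not tested.

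**Figure D5:**
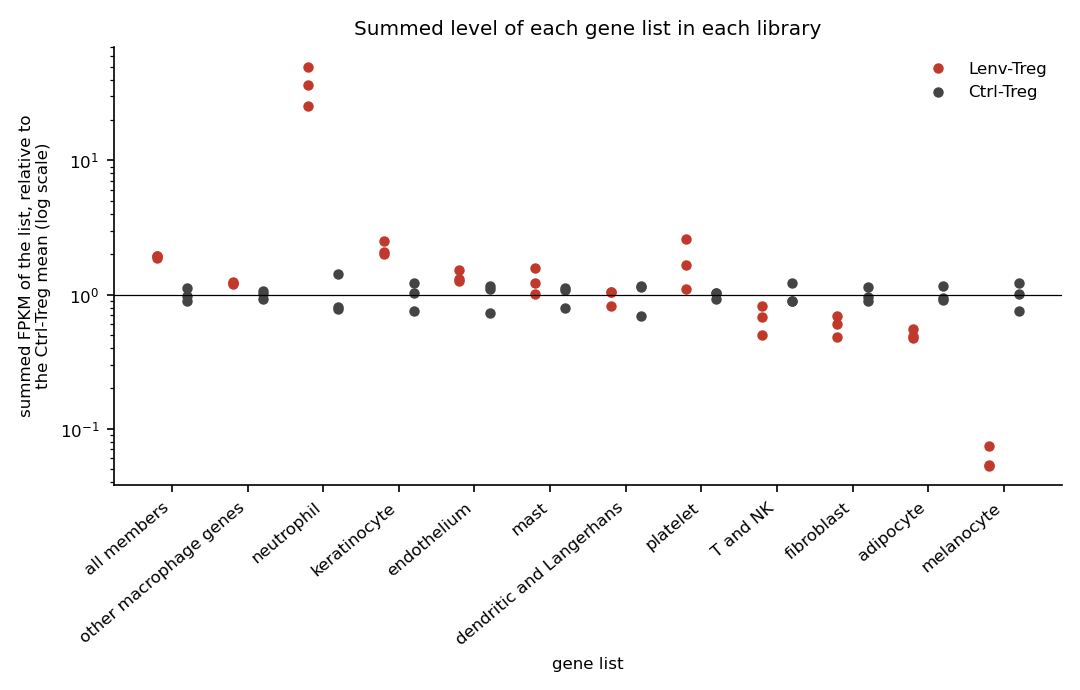
Summed FPKM of each gene list in each library relative to the Ctrl-Treg mean of that list (log axis; points are libraries, Lenv-Treg left). The neutrophil list is far above 1 in all 3 Lenv-Treg libraries and the melanocyte list far below, with the 38 members near 2.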

How the data were processed

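RNA-seq of lesional mouse skin was measured in 6 libraries, 3 Lenv-Treg and 3 Ctrl-Treg, grouped by the treatment label. The authors deposited FPKM for 35434 gene symbols in 1 table, and these values were used. Per the labels' protocols, RNA was extracted with TRIzol. Per the submitters' processing notes the genome build was GRCm39; for the aligner, counting tool, annotation and strand setting, the sources used here name none.

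Genes with at least 0.5 FPKM in at least 3 of the 6 libraries were tested (13945) with limma 3.58.1 in R 4.3.3, on log2(FPKM + 1) with a mean-variance trend, with group as the only term. Tests were two-sided, p-values were adjusted by Benjamini-Hochberg over all tested genes, and calls were made under 0.05. A difference is Lenv-Treg minus Ctrl-Treg on that log scale, which understates the change of low genes. Group values are mean FPKM ± SD (n = 3). A fold divides the group means of FPKM. All members passed the filter, so no exact permutation test, which 3 against 3 limits to p = 0.1, was run. Whole reads and depth were recovered from the steps of low FPKM values (tolerance 0.005 reads plus 1.5e-07 per read), which gave whole reads in all 13945 tested genes. This step and the limma test were tested on simulated data. The members, their roles, the other lists and the rule for naming genes were chosen with earlier results of these data known. By that rule, each role group has library values for its 2 most abundant members and the 2 others with the largest difference. Of the other macrophage genes, the most abundant and those with the smallest p were named. For lists of other cell types the rule asked for the 2 most abundant genes, but it was not followed in every list. Genes named from those lists, further macrophage genes, and pairs set in ratios were picked after their values were seen. In all, 17 alternatives were run, on pseudocount, filter, scaling, variance model, voom, block and left-out libraries. No batch is given by the labels.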

Additional observations from a re-analysis of the deposited data

How the results depend on the processing

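Of the 27 members called, 19 kept their direction and stayed past the threshold under all 17 alternatives, 17 higher and 2 lower (Lyz1 and Marco). The matching share over all tested genes was not counted, so this count describes the members alone. Under median-of-ratios scaling, 2417 of all tested genes were higher and 2417 lower, 2 members were lower, and the median difference of the members was 0.90. After rescaling to TPM these values were 947, 7970, 7 and 0.42. After quantile normalization 2305 of all tested genes were lower. With the replicate block and median-of-ratios scaling together, 2607 and 2558 of all tested genes were higher and lower and the median of the members was 0.90. Median-of-ratios scaling and TPM move all genes of a library together by construction. With 1 library left out in turn, 1152 to 1447 of all tested genes were higher and 2780 to 3900 lower, 19 to 23 members were higher and 2 to 5 lower, and the median of the members was 0.66 to 0.80. No called member's fold moved by more than 1.24 times (Spp1, without Ctrl-Treg replicate 2), and no called difference by more than 1.42 times (Fcer1g, without Ctrl-Treg replicate 2).

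Signs changed only for members that had not passed. Under median-of-ratios scaling, with or without the replicate block, the differences were 0.12 for Apoe, 0.20 for Gpnmb and 0.0155 for Ctsk. After rescaling to TPM they were -0.16 for Ms4a4c, -0.18 for Folr2 and -0.0041 for Cbr2. With 1 library left out the differences spanned -0.20 to 0.053 for Apoe, -0.19 to 0.10 for Gpnmb, -0.18 to 0.47 for Ms4a4c and -0.10 to 0.25 for Folr2. The cause was not tested.

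With the middle number of the sample title as a replicate block, 23 members were higher and 5 lower. Same-numbered libraries deviated together with r = 0.20, -0.01 and 0.33 over genes, and 0.33 and 0.20 were the highest of all pairs. Lenv-Treg replicate 2 correlated best with Ctrl-Treg replicate 1 (0.05), close to the -0.01 with its own number. These values cannot decide whether the number pairs samples, since deviations from a mean of 3 libraries are not independent. The main test left the number out, and the block is given as an alternative. Under the block Ly6c2 lost its call and Mertk and Cd9 gained one. With 3 libraries a group, precision rests on few samples, and Trem2, with 60 reads in 1 library, had the least depth of the members. Without a filter on low values, which adds genes to the adjustment, Ly6c2, Fn1, Fcer1g and Capg lost their calls besides Lyz2 (limma adjusted p = 0.0723, 0.0646, 0.0855 and 0.0741).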

Other observations

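The genes given here were chosen after their values were seen, and their values are descriptions of single genes. Retnla, a secreted protein induced by type 2 cytokines, had 104, 86.8 and 31.0 FPKM in Lenv-Treg, against 232, 498 and 223 FPKM in Ctrl-Treg (log2 difference -2.15, SE 0.49, limma adjusted p = 0.0111). Chil3, often read beside it, was higher, and the ratio of Retnla to Chil3 FPKM was 0.221 to 1.19 in the Lenv-Treg libraries, against 132 to 352 in the Ctrl-Treg libraries. The lectin gene Clec10a had 92.3, 115 and 125 FPKM in Lenv-Treg, against 62.9, 70.5 and 45.7 FPKM in Ctrl-Treg (log2 difference 0.89, SE 0.19, limma adjusted p = 0.00802), while its close relative Mgl2 was lower; how reads shared by the pair were counted is not known, so both are uncertain, with a ratio of Mgl2 to Clec10a of 0.0400 to 0.0491 in the Lenv-Treg libraries, against 0.270 to 0.543 in the Ctrl-Treg libraries. Arg1, arginase 1, had 102, 91.3 and 37.4 FPKM in Lenv-Treg, against 6.21, 13.3 and 11.8 FPKM in Ctrl-Treg (log2 difference 2.70, SE 0.41, limma adjusted p = 0.00201), and Nos2, the inducible nitric oxide synthase, averaged 1.59 ± 0.872 FPKM in Lenv-Treg and 0.346 ± 0.145 FPKM in Ctrl-Treg (SD, n = 3 each, log2 difference 0.89, SE 0.23, limma adjusted p = 0.0184, with the call lost without Lenv-Treg replicate 3 or Ctrl-Treg replicate 3 at limma adjusted p = 0.0525 and 0.0517).

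Ccr2, the chemokine receptor that brings monocytes out of the marrow, had 32.0, 42.4 and 41.5 FPKM in Lenv-Treg, against 16.5, 14.4 and 15.7 FPKM in Ctrl-Treg (log2 difference 1.25, SE 0.13, limma adjusted p = 0.000386). Timd4, a receptor for dead cells on long-lived resident macrophages, had 1.31, 1.43 and 0.984 FPKM in Lenv-Treg, against 2.95, 4.47 and 3.64 FPKM in Ctrl-Treg (log2 difference -1.06, SE 0.14, limma adjusted p = 0.00126). Vsig4, a complement receptor of resident macrophages, averaged 5.37 ± 0.975 FPKM in Lenv-Treg and 1.91 ± 0.581 FPKM in Ctrl-Treg (SD, n = 3 each, log2 difference 1.14, SE 0.18, limma adjusted p = 0.00231). The growth factor receptor gene Csf1r averaged 91.9 ± 9.18 FPKM in Lenv-Treg and 66.7 ± 17.7 FPKM in Ctrl-Treg (SD, n = 3 each) and did not pass (limma adjusted p = 0.0882).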
